A study of Mus musculus with 2 samples.

Results

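S100 proteins are small calcium-binding proteins, and 10 mouse genes of this family were followed here in the spleens of newborn mice: S100a1, S100a4, S100a6, S100a8, S100a9, S100a10, S100a11, S100a13, S100a16 and S100b. They were chosen by symbol, matched through their Ensembl identifiers to the 43346 Ensembl genes of the expression tables, and all 10 were found. The spleens came from 2 pups, which the labels' sample descriptions assign to the same pregnancy, of strain B6NCrl and with no treatment named in the labels, taken at 0 days after birth, with the sex not collected. Each pup gave 1 total RNA library, called replicate 1 and replicate 2 after the labels, so there was 1 group and no treated or mutant group. The labels describe separate pups but give both the same donor identifier, so the spread between libraries is that of littermates at most. RNA longer than 200 nt was used from 10 ng of input with spike-ins added.

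S100 proteins carry a pair of EF-hand loops, usually act as dimers, and change shape on binding calcium so that they can hold a partner protein. S100A8 and S100A9 form calprotectin, a major protein of neutrophil cytoplasm that withholds zinc and manganese from microbes and, once released, can act on receptors such as TLR4 and RAGE. Other members bind annexins at membranes (S100A10 with annexin A2, S100A11 with annexin A1), cytoskeletal motors (S100A4 with non-muscle myosin) or ubiquitin ligase adaptors (S100A6 with the calcyclin-binding protein). In the newborn mouse the spleen is a site of blood formation, in which red cell precursors and developing myeloid cells lie together.

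The libraries held 33122187 and 32162543 estimated counts in replicates 1 and 2, and spike-ins took 0.00210% and 0.00233% of them. The 4 adult globin genes took 27.8% and 25.7% of the summed TPM, the length-corrected share of a library's transcripts. Marker lists were read beside the labelled tissue: 9 of 9 erythroid genes and 9 of 11 macrophage genes were detected, against 55.6% of protein-coding genes. Spic, a regulator of red pulp macrophages that was named after its values were seen, had 18.6 and 28.8 TPM. Genes of the pancreas were also present, with 9 of 11 detected and a summed level of 987 and 346 TPM in replicates 1 and 2. Counts of detected markers alone therefore do not identify the tissue. A gene counts as detected here at 1 TPM or more in both libraries.

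Promoter windows are shown first for the members on which the results turn: the pair of calprotectin genes, which hold most of the family's transcripts, S100a11, the next in level, S100a4, whose TATA motif lies at nearly the same distance from the start as that of S100a8, and S100a16, whose annotated transcripts begin at separate starts. Each window runs from 250 bases before to 50 bases after the RefSeq start (GRCm38.p6), 5′ to 3′ on the gene's strand. Capitals mark matches, on either strand, to any of 5 motifs searched: TATAAA (the TATA box), GGGCGG (the GC box bound by SP factors), GAGGAA (bound by the myeloid factor PU.1), TTGCNNAA (bound by C/EBP factors) and TGANTCA (bound by AP-1). Neighbouring matches run together in capitals.
S100a8, chr3:90668821-90669120, plus strand: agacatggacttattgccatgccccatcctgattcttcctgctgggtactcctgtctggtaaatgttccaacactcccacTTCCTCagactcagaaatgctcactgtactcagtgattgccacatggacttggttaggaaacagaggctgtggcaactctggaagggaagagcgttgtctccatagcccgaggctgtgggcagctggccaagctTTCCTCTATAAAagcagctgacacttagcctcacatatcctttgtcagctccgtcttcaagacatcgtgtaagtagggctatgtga
S100a9, chr3:90695672-90695971, minus strand: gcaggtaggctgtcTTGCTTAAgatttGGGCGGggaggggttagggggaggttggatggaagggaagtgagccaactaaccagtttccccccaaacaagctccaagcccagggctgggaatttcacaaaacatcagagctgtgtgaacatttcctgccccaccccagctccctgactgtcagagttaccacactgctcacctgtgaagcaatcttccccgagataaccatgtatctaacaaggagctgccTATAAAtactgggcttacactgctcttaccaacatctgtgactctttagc
S100a4, chr3:90603520-90603819, plus strand: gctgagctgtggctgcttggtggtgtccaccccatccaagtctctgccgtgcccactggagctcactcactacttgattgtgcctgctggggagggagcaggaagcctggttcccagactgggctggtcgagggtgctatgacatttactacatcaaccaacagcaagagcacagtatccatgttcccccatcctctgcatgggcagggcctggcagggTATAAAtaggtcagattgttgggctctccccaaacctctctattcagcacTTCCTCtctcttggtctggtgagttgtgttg
S100a11, chr3:93520246-93520545, plus strand: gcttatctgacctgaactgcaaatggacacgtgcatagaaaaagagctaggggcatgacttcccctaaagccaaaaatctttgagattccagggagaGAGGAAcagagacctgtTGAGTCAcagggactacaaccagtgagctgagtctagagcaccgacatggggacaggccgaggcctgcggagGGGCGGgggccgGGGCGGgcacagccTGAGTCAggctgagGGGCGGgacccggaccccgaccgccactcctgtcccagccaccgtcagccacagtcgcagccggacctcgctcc
S100a16 upstream start, chr3:90537004-90537303, plus strand: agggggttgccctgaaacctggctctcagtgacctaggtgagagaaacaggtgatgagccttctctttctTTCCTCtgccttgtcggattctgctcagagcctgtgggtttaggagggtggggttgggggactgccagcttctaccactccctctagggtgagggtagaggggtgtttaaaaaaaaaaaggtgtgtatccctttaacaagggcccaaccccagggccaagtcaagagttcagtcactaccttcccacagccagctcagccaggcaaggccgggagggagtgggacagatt
S100a16 downstream start, chr3:90540896-90541195, plus strand: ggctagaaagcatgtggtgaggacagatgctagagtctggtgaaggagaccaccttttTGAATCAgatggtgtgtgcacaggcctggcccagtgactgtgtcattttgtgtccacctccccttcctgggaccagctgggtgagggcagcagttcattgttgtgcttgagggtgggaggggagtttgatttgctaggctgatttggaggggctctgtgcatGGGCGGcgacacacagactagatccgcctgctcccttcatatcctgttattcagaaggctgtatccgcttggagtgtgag

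The windows differ in which motifs they hold. In S100a8 a TATAAA begins 30 bases before the start, directly after a GAGGAA match on the other strand that begins 36 bases before it, and another such match lies 170 bases before the start. The GENCODE model of S100a8 begins 93 bases before the RefSeq start, so these distances hold for the RefSeq start only; for S100a4, S100a9 and S100a11 both annotations begin within 8 bases of each other. In S100a4 a TATAAA begins 31 bases before the start. In S100a9 the TATAAA begins at base 1 of the annotated RefSeq start, and the window also holds TTGCNNAA at 236 and GGGCGG at 223 bases before it. S100a11 holds 3 GGGCGG matches, at 64, 52 and 24 bases before the start, and TGANTCA matches at 136 and 38 bases before it. Across 10 windows of 9 members, TATAAA was found anywhere in 3, against 13.6% of all 32851 RefSeq windows of that length, and on the gene strand 40 to 20 bases before the start in 2, against 1.99%. GGGCGG was in 3 member windows, against 35.7% of all windows, GAGGAA in 4, against 28.3%, TTGCNNAA in 1, against 10.8%, and TGANTCA in 2, against 7.81%. The windows of S100a1 and S100a13, which lie on opposite strands and share 204 bases, held none of the 5 motifs, and neither did those of S100a6 and S100b. A match describes the letters and says nothing of which factor is bound in the spleen.

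The family was dominated by calprotectin. S100a8 (ENSMUSG00000056054, chr3:90668978-90670035, plus strand, mm10) had 7291 TPM in replicate 1 and 10505 TPM in replicate 2, from 67337 and 91526 counts. S100a9 (ENSMUSG00000056071, chr3:90692632-90695721, minus strand) had 3838 TPM in replicate 1 and 5515 TPM in replicate 2, from 50055 and 67847 counts. By mean TPM they ranked 8 and 17 of all genes, and 5 and 11 of protein-coding genes. Both genes were lower in replicate 1, and in each library S100a8 was above S100a9.

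The pair stood in nearly the same proportion in both pups. S100a8 over S100a9 was 1.90 in both replicates on the TPM scale, which is per length (1.90 ± 0.00371, SD, n = 2), while the levels themselves differed between the libraries. In counts, which are not per length, the ratio was 1.35 in both. The S100a8 transcript is 392 nt long, so the size of the ratio depends on how length is treated, while its closeness between libraries does not. Together the pair held 89.2% of the family's summed TPM in replicate 1 and 90.7% in replicate 2.

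The summed TPM of neutrophil marker genes was also lower in replicate 1. The late neutrophil list, of granule and surface genes of maturing neutrophils, had all 14 genes detected and summed to 3266 TPM in replicate 1 and 4473 TPM in replicate 2. Its 3 highest genes were Retnlg, a resistin-like secreted protein (1029 and 1234 TPM), Ngp, a neutrophil granule protein (783 and 1146 TPM), and Camp, the cathelicidin precursor (650 and 908 TPM). The early list, mostly but not only of azurophil granule genes, summed to 865 and 1171 TPM with 7 of 7 detected. It was led by Mpo, the myeloperoxidase (348 and 477 TPM), and Elane, the neutrophil elastase (203 and 272 TPM). Prtn3, the proteinase 3, followed (155 and 209 TPM). S100a8 plus S100a9 stood at 3.41 and 3.58 times the late list and at 12.9 and 13.7 times the early list, in replicates 1 and 2. Summed TPM was also lower in replicate 1 for other lists, such as monocyte and stromal genes, and higher for erythroid and pancreas genes. Whole tissue was measured, so fewer neutrophils, less RNA per neutrophil and a shift in the rest of the library cannot be told apart. None of these was tested.

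Next in level came S100a11 and S100a6. S100a11 (ENSMUSG00000027907, chr3:93520488-93526287, plus strand), also called calgizzarin, had 753 TPM in replicate 1 and 930 TPM in replicate 2. S100a6 (ENSMUSG00000001025, chr3:90612882-90624181, plus strand), also called calcyclin, had 274 TPM in replicate 1 and 330 TPM in replicate 2. Both were lower in replicate 1, and together they made up 76.3% and 77.1% of the summed TPM of the 8 members other than calprotectin, which was 1346 and 1634 TPM. A processed pseudogene, S100a11-ps on chromosome 12, could compete for S100a11 reads but was given 0 counts in both libraries. The estimated counts of S100a11, 9784.3 and 11388.6, are not whole numbers. Some of its reads were therefore divided with other features, which were not traced here.

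S100a10, S100a16 and S100a13 followed. S100a10 (ENSMUSG00000041959, chr3:93555080-93564643, plus strand), the p11 subunit that has lost calcium binding, had 118 TPM in replicate 1 and 126 TPM in replicate 2. S100a16 (ENSMUSG00000074457, chr3:90537254-90543151, plus strand), a widely expressed member, had 83.2 TPM in replicate 1 and 104 TPM in replicate 2. S100a13 (ENSMUSG00000042312, chr3:90514435-90524581, plus strand), which takes part in the release of FGF1 without a signal peptide, had 54.0 TPM in replicate 1 and 61.1 TPM in replicate 2.

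S100a1 and S100a4 were the lowest detected members. S100a1 (ENSMUSG00000044080, chr3:90511034-90514392, minus strand), best known from heart and skeletal muscle, had 35.2 TPM in replicate 1 and 44.0 TPM in replicate 2. S100a4 (ENSMUSG00000001020, chr3:90603771-90606045, plus strand), also called metastasin or FSP1, had 27.5 TPM in replicate 1 and 39.0 TPM in replicate 2. Their ranges overlap, since replicate 1 of S100a1 lies below replicate 2 of S100a4, so their order is not settled by these libraries although it was the same in each. The ranges of every other pair of neighbours in the order did not overlap. S100a4 shares 302 of its 584 exon bases (51.7%) with Gm42674 on the same strand; the transcript of that locus was counted with S100a4 in these tables and was given 0 counts.

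S100b stood apart from the other 9. S100b (ENSMUSG00000033208, chr10:76253853-76261159, plus strand), the member of glia, Schwann cells and fat cells, had 0.21 TPM in replicate 1 and 0.19 TPM in replicate 2, from 9 and 8 counts. The members S100a4 and S100b, next to each other in the order, were 166-fold apart in mean TPM. Of 9 Schwann and glial marker genes 3 were detected, with the list summing to 30.9 and 32.4 TPM; those 3 were Mbp, the myelin basic protein (17.4 and 17.2 TPM), Fabp7 (9.08 and 11 TPM) and Ngfr (3.12 and 2.80 TPM). Of 7 fat cell genes only Fabp4 was detected (51.0 and 37.9 TPM), and Cidec and Lep, the leptin gene, had 0 counts in both libraries, which allows up to 0.0906 and 0.0933 CPM (counts scaled to a common library size). For S100a1, 3 of 7 skeletal muscle and 2 of 6 heart muscle genes were detected, summing to 32.8 and 35.3 TPM and to 4.76 and 4.82 TPM.

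**Figure D1:**
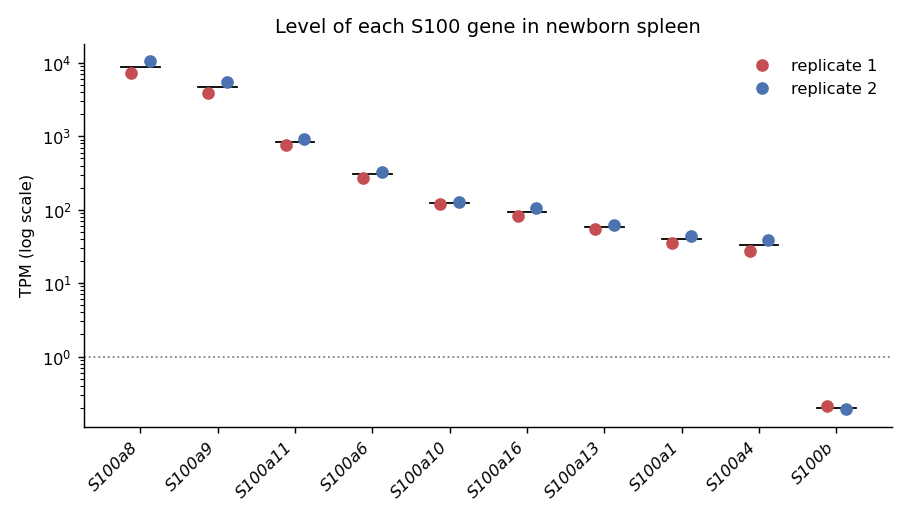
Level of each member in TPM on a log axis, with a point per library (replicate 1 left, replicate 2 right) and a bar at the mean; the dotted line is 1 TPM, the detection level. The means fall in the order given above, from 8898 TPM for S100a8 to 0.20 TPM for S100b, and 9 of the 10 members lie above the line.

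In the plot of levels by library, the gap below S100a4 is the widest step. The mean levels with their SD (n = 2) were 8898 ± 2272 TPM for S100a8, 4676 ± 1185 TPM for S100a9, 842 ± 125 TPM for S100a11, 302 ± 39.8 TPM for S100a6 and 122 ± 5.30 TPM for S100a10. They were 93.6 ± 14.7 TPM for S100a16, 57.5 ± 5.03 TPM for S100a13, 39.6 ± 6.21 TPM for S100a1, 33.3 ± 8.14 TPM for S100a4 and 0.20 ± 0.014 TPM for S100b. The family as a whole made up 1.248% of all TPM in replicate 1 and 1.765% in replicate 2. Of the 10 members 9 were detected, against 31.0% of all Ensembl genes and 55.6% of protein-coding genes in the tables. The members were chosen with earlier results of these data known, and 0 of 7 other S100 genes were detected. That share therefore describes the chosen genes and not the whole family.

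The remaining S100 genes were near 0. None of 7 others was detected: S100a2, the highest by mean, had 0.44 and 0.47 TPM from 3 counts in each library, S100g, the intestinal calbindin, had 0.50 and 0.09 TPM and so was above it in replicate 1, S100a3 had 0.21 and 0 TPM, and S100z had 0 counts in both. S100a7l2 is not analysed here. The fused-type genes, whose proteins join an S100 domain to long repeats in skin and hair, also had 0 of 7 detected, with Flg (filaggrin), Hrnr, Tchhl1 and Crnn at 0 counts. Tchh (trichohyalin) was the highest of them, at 0.12 and 0.15 TPM.

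The members lie in 2 blocks on chromosome 3, apart from S100b on chromosome 10. From S100a1 to S100a9 there are 185 kb with 12 protein-coding S100 genes. Of these 7 were detected, a share near the 55.6% of all protein-coding genes. S100a8 and S100a9 lie 22.6 kb apart, and S100a11 and S100a10 lie 28.8 kb apart. The 2825 kb between S100a9 and S100a11 hold 60 protein-coding genes of the tables, many of them genes of epidermal differentiation. Of these 60, 1 was detected (1.67%, against the same 55.6%), while 37 had 0 counts in both libraries. The summed level of all 60 was 9.02 TPM in replicate 1 and 8.69 TPM in replicate 2, below that of S100a4 alone. Within the first block, undetected genes lie between detected ones: S100a14 (0.04 and 0.16 TPM) lies between S100a13 and S100a16, and S100a5 (0.20 and 0 TPM) between S100a4 and S100a6.

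**Figure D2:**
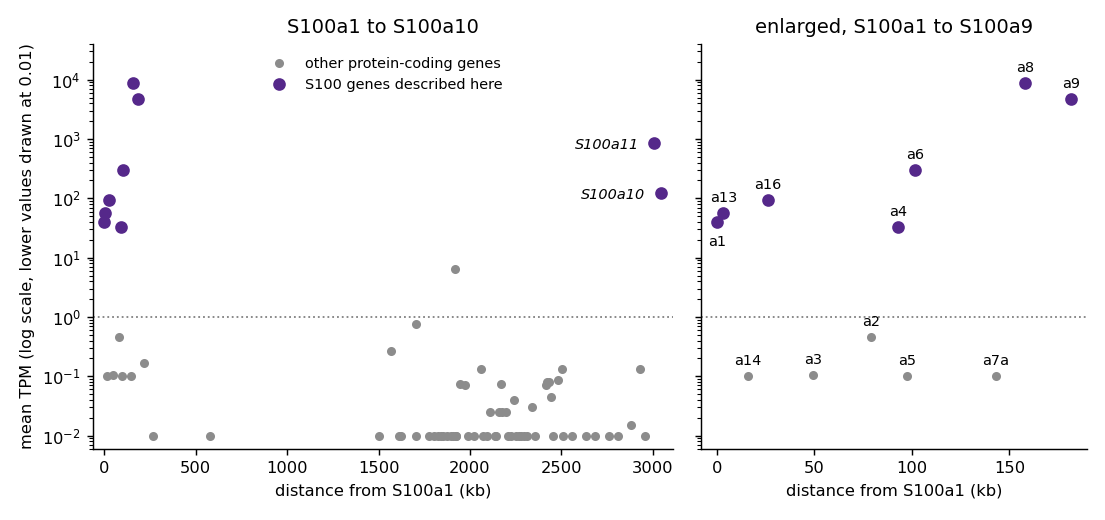
Mean TPM (log axis, values below 0.01 drawn at 0.01) of the 74 protein-coding genes between S100a1 and S100a10, against distance from S100a1 in kb, with the first block enlarged on the right; the dotted line is 1 TPM. The 9 members on the chromosome, in purple, lie between 33.3 and 8898 TPM, and 1 other gene lies above the line.

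The plot along the chromosome shows both blocks of detected members with the undetected stretch between them. The neighbours S100a8 and S100a9 are also the highest pair, whereas S100a11 and S100a10, neighbours in the second block, differed 6.38-fold in replicate 1 and 7.40-fold in replicate 2. S100a6 and S100a4, which have S100a5 between them in the first block, differed 9.96-fold and 8.46-fold on the TPM scale.

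Transcript tables divided the reads of each gene among its annotated transcripts. The starts named here are annotated ones, and the shares are estimates that do not measure which start was used. S100a9 was divided between S100a9-201 (512 nt), with 89.2% and 89.3% of the gene's TPM, and S100a9-202 (519 nt), with 10.8% and 10.7%. The posterior SD of that division was 240 and 321 counts. The start of S100a9-202 is base 90695721, where the printed TATAAA begins, and that of S100a9-201 is base 90695711, further along the gene.

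Transcripts of S100a16 annotated at or near both printed starts were assigned reads. The 3 transcripts that start near S100a16-201, between bases 90541146 and 90541161, held 79.4% of the gene's TPM in replicate 1 and 81.6% in replicate 2 (80.5% ± 1.55, SD, n = 2). The 5 transcripts with upstream starts, between 90537254 and 90539288, held 20.6% and 18.4%. S100a16-202 led the upstream group with 20.6% and 17.5%, and its posterior SD was 94.2 and 90.8 counts of 557 in each library. The counts of S100a16-202 differed between libraries by less than that posterior SD. The upstream window holds a GAGGAA match on the other strand, and the downstream window holds GGGCGG at 30 and TGANTCA at 192 bases before the start.

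S100a1-201 held 96.3% and 95% of S100a1, S100a10-201 held 99.9% of S100a10 in both libraries, and S100a4-201 held all of S100a4. S100a6, S100a8, S100a11, S100a13 and S100b have 1 transcript each in the tables.

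**Figure D3:**
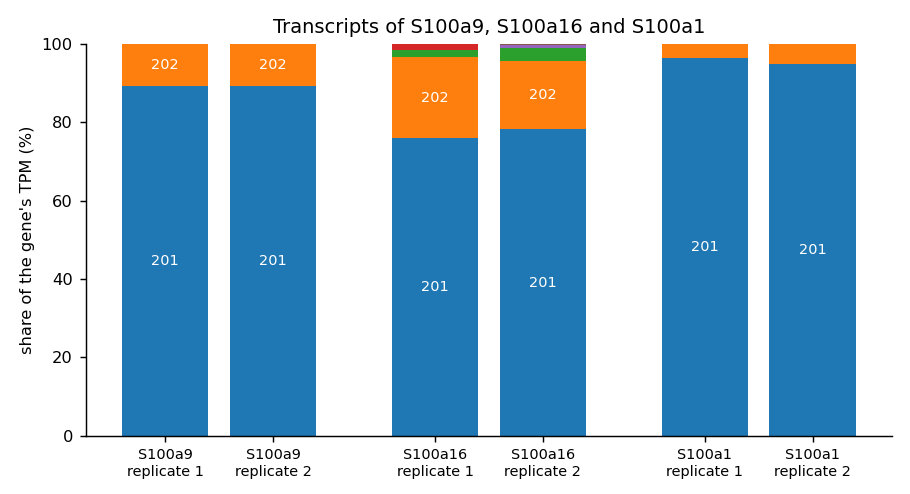
Share of the gene's TPM (percent) in each transcript of S100a9, S100a16 and S100a1, a bar per library with replicate 1 on the left of each pair; the numbers are transcript names and the thin bands at the top are minor transcripts. S100a9-201 takes 89.2% and 89.3%, S100a16-201 takes 75.9% and 78.2%, and S100a1-201 takes 96.3% and 95%.

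The bars of transcript shares show S100a16 with the lowest share in its leading transcript and S100a9 with nearly equal bars in both pups.

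Between the pups the calprotectin genes and S100a4 had the ratios furthest from 1 among the members. Counts were scaled between libraries by TMM, which takes most genes as unchanged, and the ratio of replicate 1 over replicate 2 was read for the 15499 genes that averaged 20 counts or more; with 1 library a side there is no test. S100b fell below that filter, so 9 of the 10 members were compared. S100a8 had 2104 CPM in replicate 1 and 2749 CPM in replicate 2, a ratio of 0.765 with a 95% Clopper-Pearson interval of 0.758 to 0.773, which covers counting error only. S100a9 had a ratio of 0.767 (0.759 to 0.776) and S100a4 one of 0.778 (0.674 to 0.896), wider because it rests on 346 and 463 counts. The interval of S100a4 includes the ratios of S100a16, S100a1 and S100a11, given below, so its place below them is not settled.

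The other members had ratios closer to 1. S100a16 stood at 0.884 (0.839 to 0.931), S100a1 at 0.885 (0.795 to 0.985), S100a11 at 0.894 (0.870 to 0.918) and S100a6 at 0.915 (0.882 to 0.949). S100a13, at 0.974 (0.895 to 1.06), and S100a10, at 1.04 (0.977 to 1.10), had intervals that include 1. None of the 9 members was 1.5-fold apart, against 7.09% of all genes compared, and 3 had a ratio of 0.8 or below, against 15.4%. These shares cover every gene past the filter and were not matched to the members' counts, so they do not show the members as steadier than other genes. Past 0.8 or its inverse were 24.5% of genes. With scaling to spike-ins S100a4 had a log2 ratio of -0.31 and was not past that limit. In all, 8 of 9 had a log2 ratio below 0, against 51.1% of genes, and the median was -0.18, against -0.0068 for all genes. The sign of S100a10 turned with scaling to library size (log2 ratio -0.05) and with TPM (-0.09), and that of S100a13 turned with scaling to spike-ins (0.01); the other 7 kept theirs under the 5 scalings. Relative to TMM, library size moved the median of all genes to -0.11 and TPM moved it to -0.14.

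**Figure D4:**
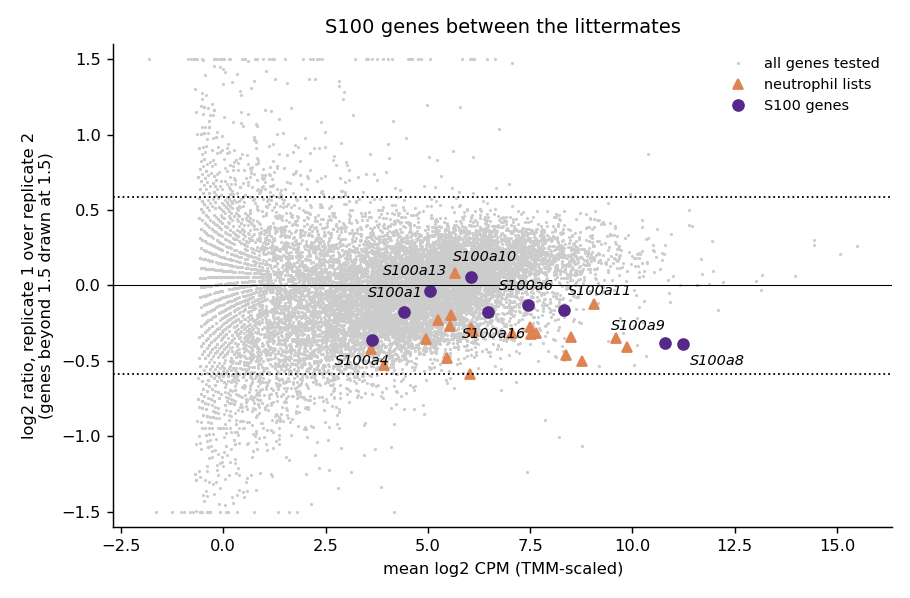
Log2 ratio of replicate 1 over replicate 2 against mean log2 CPM for all 15499 genes, with the 9 members in purple and the neutrophil lists as orange triangles; dotted lines mark 1.5-fold and 84 genes beyond 1.5 are drawn at 1.5. The members lie between -0.39 (S100a8) and 0.05 (S100a10), all between the lines.

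In the plot of ratios against level, S100a8 and S100a9 lie at the right, where the cloud of genes is narrow, and the neutrophil genes are drawn beside them. The late neutrophil list had a median log2 ratio of -0.35. Of its genes 13 of 14 were below 0, against 51.1% of all genes compared, and 8 were at a ratio of 0.8 or below, against 15.4%. The early list had a median of -0.28 with 7 of 7 below 0. Monocyte (-0.36), macrophage (-0.49), stromal (-0.41) and B cell (-0.32) lists also had medians below 0. Erythroid (0.27) and smooth muscle (0.47) lists were above 0, and all 10 pancreas genes compared were at least 1.5-fold higher in replicate 1 (median 1.77), against 2.54% of genes. Mast cell genes had a median of -0.95. The part of these cell types in the ratios of the S100 genes was not tested.

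**Figure D5:**
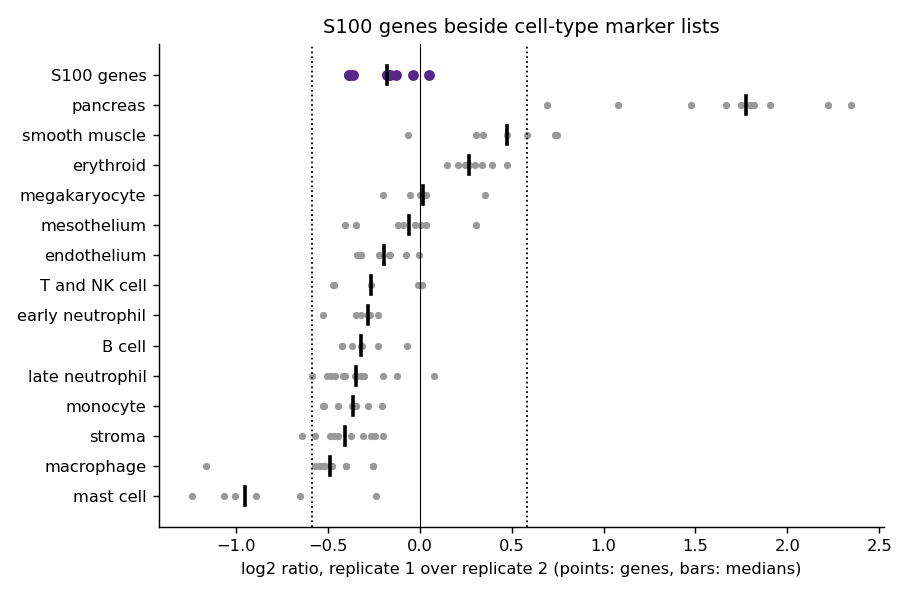
Log2 ratio of replicate 1 over replicate 2 for the 9 members (purple, top row) and for the genes of 14 marker lists (grey), with a bar at each median; dotted lines mark 1.5-fold. The members' median of -0.18 lies between those of the mesothelium list (-0.06) and the endothelium list (-0.19).

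The plot of marker lists puts the members among the lists in the middle of the range. S100a8 and S100a9 (-0.39 and -0.38) lie between the medians of the stromal and monocyte lists. Among the lists drawn, S100a13 (-0.04) lies between the medians of the mesothelium (-0.06) and megakaryocyte (0.02) lists, and S100a10 (0.05) lies just above the megakaryocyte median. The Schwann and glial, fat cell, skeletal muscle, heart muscle and cartilage lists were not drawn. Of these, the heart muscle median (-0.04, 2 genes compared) lies nearer to S100a13. The Schwann and glial median (0.03, 5 genes compared) lies nearer to S100a10.

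Of 7 genes on a chosen list of receptors for extracellular S100 proteins, 7 were detected, against 55.6% of protein-coding genes. Bsg (basigin, a receptor for S100A9) had 655 and 577 TPM, Cd36 (a fatty acid and scavenger receptor) had 86.7 and 102 TPM, and Emb (embigin, a relative of basigin) had 33.6 and 45.9 TPM. The best known receptors were low: Tlr4 had 2.00 and 3.17 TPM and Ager, which encodes RAGE, had 2.47 and 3.39 TPM, both named after their values were seen.

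Of the intracellular partners, the 7 annexins on a chosen list were all detected, against 55.6% of protein-coding genes. They were led by Anxa2 (219 and 277 TPM), Anxa1 (187 and 277 TPM) and Anxa5 (68.8 and 90.5 TPM). S100a10 stood at 0.540 and 0.453 times Anxa2, its binding partner, and S100a11 stood at 4.03 and 3.36 times Anxa1, its binding partner, in replicates 1 and 2. S100a6 stood at 1.97 and 2.65 times Cacybp and S100a4 at 0.727 and 0.843 times Myh9, the heavy chain of non-muscle myosin. These are ratios of TPM with 1 value a pup, and the pups did not share them as closely as the ratio of S100a8 over S100a9. S100a16 and S100a1, not listed here as partners, also stood in nearly the same proportion in both pups.

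Of 22 listed targets 14 were detected, a share near the 55.6% of all protein-coding genes, and the 3 highest were Vim (vimentin, 299 and 359 TPM), Capzb (an actin capping subunit, 167 and 189 TPM) and Cacybp (139 and 125 TPM). Of 6 genes of the plasmin system, which S100A10 takes part in at the cell surface, 5 were detected, led by Plgrkt (a plasminogen receptor, 53.3 and 68.1 TPM), Plaur (the urokinase receptor, 22.2 and 25.8 TPM) and Dlc1 (whose protein binds S100A10, 16.3 and 19.3 TPM). Of 11 listed transcription regulators 10 were detected, led by Spi1 (PU.1, 41.9 and 56.9 TPM), Nfe2l2 (48.0 and 47.0 TPM) and Stat3 (29.8 and 33.9 TPM). Sox10, a glial regulator, was the exception, with 2 and 1 counts.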

How the data were processed

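The tissue, 1 spleen from each of 2 pups, was measured as total RNA, and replicate numbers follow the labels. The authors deposited gene and transcript tables on mm10; their listing names GENCODE M4 models. Neither the aligner nor whether counting was by strand could be read from the sources; genes that overlap may therefore share reads. The deposited expected counts are estimated counts, since a read that fits several features is divided among them. The TPM deposited by the authors counts spike-ins in its total and uses an effective length that is 99 nt below the transcript length, which raises short genes such as S100a8.

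Names and coordinates came from GENCODE M21, and promoter windows from RefSeq GRCm38.p6. The members, lists and call rules were chosen with earlier results of these data known. Lists were to be represented by their 3 highest genes by mean TPM and those at 0 counts; several lists are given by their counts, sums or medians alone, and names outside this rule were chosen after their values were seen. Levels are the mean and SD of TPM. For ratios, rounded counts with a mean of at least 20 went into edgeR 4.0.16 under R 4.3.3, with TMM scaling and a prior count of 2, and library sizes held Ensembl genes alone. There is 1 library a side, so no test was made. Alternatives were DESeq2 1.42.0 size factors, library size, spike-in totals, TPM, other filters and folds, full-length and posterior mean TPM, and each library alone.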

Additional observations from a re-analysis of the deposited data

How the results depend on the processing

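The family's share of TPM, 1.51% as reported, was 0.497% as a share of expected counts, which are not per length, and 2.05% without the 4 adult globin genes in the total, an alternative chosen after seeing the data. Calprotectin's share of the family, 90.0% as reported, was 85.3% by expected counts. S100a8 over S100a9, 1.90 as reported, was 1.76 over the full length. With the limit at a ratio of 0.8 or its inverse, 3 members were past it, against 0 at 1.5-fold; S100a4 was not past it with scaling to spike-ins (log2 ratio -0.31). With a single library, the family share ranged from 1.248% to 1.765%, calprotectin's share from 89.2% to 90.7%, the ratio of the pair from 1.90 to 1.90 and the members detected from 9 to 9. Over all alternatives run, 38 of the recomputed member levels moved by less than the spread between libraries and 2 did not, both for S100b. The 38 include each library alone, which cannot differ from the mean of 2 by more than their SD. Those alternatives could not count as moved. Of the members' log2 ratios recomputed under other scalings or a smaller prior count, 29 stayed within their counting interval and 16 did not. The filters on low counts were not run for single members' ratios. No paired analysis was possible because the libraries form 1 group. With 2 littermates and 9 and 8 counts, depth limits S100b most. Intervals cover counting error only.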

Other observations

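In the stretch of chromosome 3 between S100a9 and S100a11 the detected protein-coding gene was Gm9774, with 6.85 TPM in replicate 1 and 6.10 TPM in replicate 2. The skin barrier genes Lor (loricrin, 0.34 and 0.20 TPM) and Ivl (involucrin, 0.10 and 0.17 TPM), which share that stretch, were not detected. The processed pseudogene Gm4202 in the same stretch had 11.9 and 9.48 TPM. These genes were chosen after their values were seen.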
